A study of Hevea brasiliensis with 2 samples.

Results

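Histones and the proteins that act on chromatin were described in the latex of rubber tree, Hevea brasiliensis, across 2 clones. The set held 58 unigenes (assembled transcript sequences) of 51192, and it was selected on measured values. The authors' table of 6726 unigenes that passed their thresholds between the clones (FDR ≤ 0.001 and |log2 Ratio| ≥ 1) was searched for annotation words. The words were histone, chromatin, nucleosome, bromodomain, SWI/SNF, chromomethylase and cytosine-5, read in the best Nr or Swissprot hit. They matched 60 unigenes, of which 2 were left out because their row of the table also names MYB. The clone difference therefore chose the members, and every clone difference below is a description with no test. The smallest absolute log2 ratios in the set were those of Unigene11978 (1.01) and Unigene33565 (-1.01). Unigenes just outside the thresholds carry no annotation in that table and were not analysed here.

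The study compared clone CATAS8-79, which the sample labels call RY8-79, with clone PR107, which differ in how long latex flows and how fast it is regenerated after tapping. Latex is the cytoplasm of laticifers, the rubber-making cells of the bark, and it was collected from untreated trees at their first tapping. The labels give the age of the trees as 3 years in both groups, whereas the methods of the study give an older age. Latex of several trees was pooled into 1 library per clone, so no difference has a replicate check, and any test compares these libraries and not the clones.

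Chromatin is DNA wrapped around octamers of the core histones H2A, H2B, H3 and H4, and the linker histone H1 binds between octamers. Acetyltransferases and methyltransferases write chemical marks on histones, deacetylases remove acetyl groups, bromodomain proteins bind acetylated lysine, and remodellers use ATP to move or exchange histones. Most core histones are made when DNA is replicated, while variants such as H2A.Z are made throughout the cell cycle. Plant histone mRNAs carry poly(A) tails, so they are captured by the oligo(dT) beads used here.

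Of the library totals, in units of 1000000 reads, CATAS8-79 held 6.92 and PR107 held 6.87, and the median unigene had 38 and 40 reads. These totals are the reads counted on unigenes, and the paper reports more clean reads than that for each pool. Values below are read counts and RPKM (reads divided by unigene length in kilobases and by the library total in units of 1000000), and a log2 ratio is PR107 over CATAS8-79, so a positive ratio is higher in PR107. Intervals follow Clopper and Pearson at 95%. They cover counting error only, and PCR copies without molecular identifiers are not independent molecules. A two-sided Fisher's exact test with Benjamini-Hochberg adjustment over 51192 unigenes, at the thresholds of the study, called 6577 unigenes. That is 12.8% of all unigenes, with 7.14% higher in PR107 and 5.7% higher in CATAS8-79. Of the 58 members, 57 were among these calls (43 with a positive and 14 with a negative ratio). Because the rule used the same contrast, nothing is read from that count. The exception was Unigene16873, an H2B unigene with 36 and 74 reads. The test assumes no spread between libraries, and 6 members were called by exactTest in edgeR when the biological coefficient of variation was set to 0.2.

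Of the 58 members, 44 (75.9%) had a higher level in PR107, against 55.6% of the 6577 called unigenes. By the deposited counts, 3657 of these calls were higher in PR107 and 2920 in CATAS8-79. The paper states the opposite majority for its own called unigenes, with more of them higher in CATAS8-79. The reason for this conflict was not tested. In latex taken in bulk, fewer cells of a type and less RNA per cell cannot be told apart. Whether the direction differed between classes was not tested. The core histones were higher in PR107 in 15 of 16 unigenes, the histone-modifying enzymes in 13 of 16 and the bromodomain proteins in 10 of 12, while the remodellers were higher in PR107 in 4 of 9. Summed over its unigenes, the core histone class held 1030 reads in CATAS8-79 against 2550 in PR107, log2 ratio 1.32 (interval 1.21 to 1.42). The remodellers summed to 650 and 380 reads, log2 ratio -0.76 (interval -0.95 to -0.58). The 42 members outside the core histones summed to 3648 and 3870 reads, log2 ratio 0.10 (interval 0.03 to 0.16). That sum hides opposite parts, since 29 of these 42 were higher in PR107, with a median log2 ratio of 1.36 against 1.23 for the core histones. Unigene1300 and Unigene6266, with the most reads outside the core histones, were higher in CATAS8-79.

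**Figure D1:**
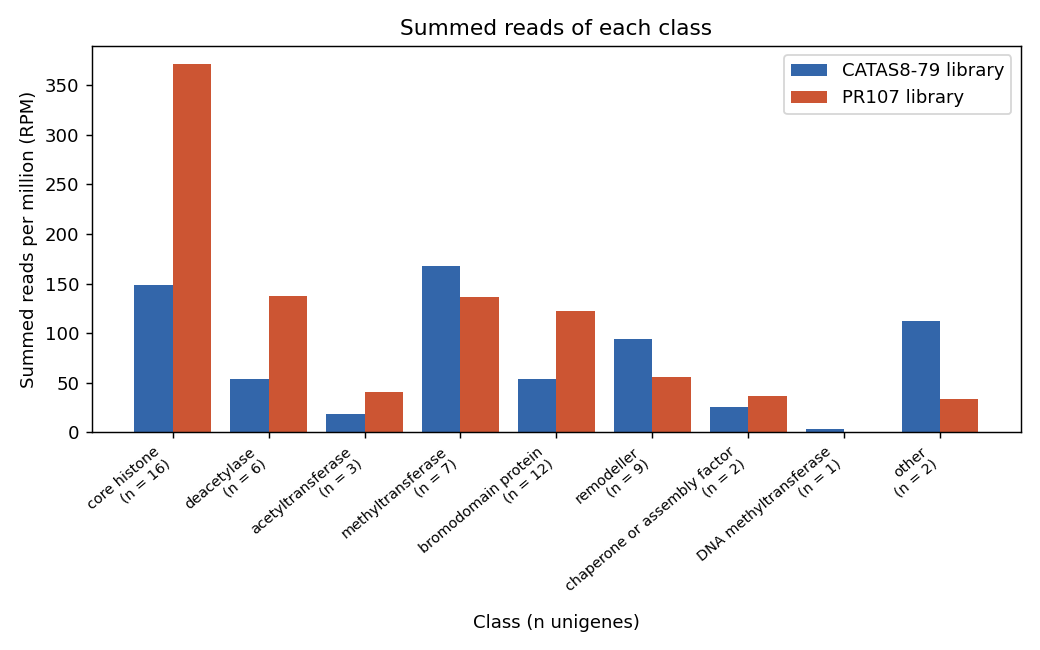
Reads scaled to a library of 1000000 (RPM) for each class of member, summed over its unigenes, in the CATAS8-79 and the PR107 library. Bars start at 0, and n under each class is its number of unigenes. The core histones stood at 149 RPM in CATAS8-79 and 371 RPM in PR107, and the remodellers were lower in PR107.

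Of the core histones, the H2B unigenes Unigene15511 and Unigene14722 had the highest RPKM in both libraries, and all 4 H2B unigenes were higher in PR107. H2B pairs with H2A in the octamer. Unigene15511 had 176 reads in CATAS8-79 against 459 in PR107, that is 75.0 and 197 RPKM, log2 ratio 1.39. Unigene14722 had 115 and 336 reads, 53.6 and 158 RPKM, log2 ratio 1.56. Unigene24600 had 140 and 336 reads, 33.8 and 81.7 RPKM, log2 ratio 1.27. Each of these was above the median unigene, which stood at 11.6 RPKM in CATAS8-79 and 12.5 in PR107, and in RPKM Unigene15511 stood above 96.4% of all unigenes in PR107. The fourth, Unigene16873, had 17.1 and 35.4 RPKM and shared its best Swissprot entry with Unigene24600, so reads of near-identical H2B copies may be divided between them. Over the 4 H2B unigenes, 467 reads in CATAS8-79 stood beside 1205 in PR107, log2 ratio 1.38 (interval 1.22 to 1.54).

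All 5 H2A unigenes were higher in PR107, and their sum differed the most of the histone types, with 177 reads in CATAS8-79 against 567 in PR107 (log2 ratio 1.69, interval 1.44 to 1.94). Several of them were annotated as variants. Unigene36727 and Unigene44421 had as best Swissprot hit the Arabidopsis HTA9 entry, an H2A.Z-type histone that is placed at the first nucleosomes of genes. Unigene36727 had 45 and 155 reads (28.0 and 97.3 RPKM, log2 ratio 1.80). Unigene44421 had 10 and 42 reads (4.38 and 18.5 RPKM, log2 ratio 2.08). Unigene41717, annotated as H2AX, the variant that is phosphorylated beside broken DNA, had 30 and 112 reads (6.43 and 24.2 RPKM, log2 ratio 1.91). The remaining H2A unigenes had entries of the common type. Unigene45001 had 18 and 92 reads, 3.67 and 18.9 RPKM, log2 ratio 2.36 (interval 1.63 to 3.18). Unigene4533 had 74 and 166 reads, 16.3 and 36.8 RPKM, and the smallest log2 ratio of the H2A unigenes, 1.18. The variant and the common entries overlapped in their ratios.

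The H3 unigenes summed to 310 reads in CATAS8-79 against 670 in PR107, log2 ratio 1.12 (interval 0.93 to 1.32), and 5 of 5 were higher in PR107. Unigene22345, Unigene7635 and Unigene32151 shared the tobacco H3.2 entry, a replication-type H3, as best Swissprot hit, and their reads may in part be exchanged. Unigene22345 had 106 and 218 reads (43.4 and 89.9 RPKM, log2 ratio 1.05). Unigene7635 had 76 and 165 reads (21.5 and 47.0 RPKM, log2 ratio 1.13). Unigene32151 had 72 and 149 reads (23.6 and 49.3 RPKM, log2 ratio 1.06). These ratios were close to each other and to the threshold. Unigene11978 was annotated as HTR12, the H3 variant that marks centromeres, and had 53 and 106 reads, 9.81 and 19.8 RPKM. Its log2 ratio of 1.01 was the smallest of the class in size, and with TMM scaling it was 0.96, under the threshold. Unigene46755, a fragment of 204 bp whose best hit was an H3 of the alga Volvox, had 3 reads in CATAS8-79 against 32 in PR107 (2.13 and 22.8 RPKM), log2 ratio 3.43 and a wide interval (1.75 to 5.78).

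Among the core histones, a pair of unigenes was annotated only as histone 2 of poplar, with no type given. Unigene25274 had 51 and 106 reads, log2 ratio 1.07, and shared its best Nr entry with Unigene36727, the H2A.Z-type unigene. Unigene29704 was the single core histone with a lower level in PR107. It had 25 reads in CATAS8-79 against 2 in PR107 (10.7 and 0.862 RPKM), log2 ratio -3.63 (interval -6.76 to -1.63). In RPKM, 10 of the 16 core histones lay above the median unigene in CATAS8-79, and 15 of the 16 did so in PR107. Of the 15 that were higher in PR107, 10 were under 3-fold and 5 were at 3-fold or more, over a range from 2.02-fold to 10.7-fold.

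**Figure D2:**
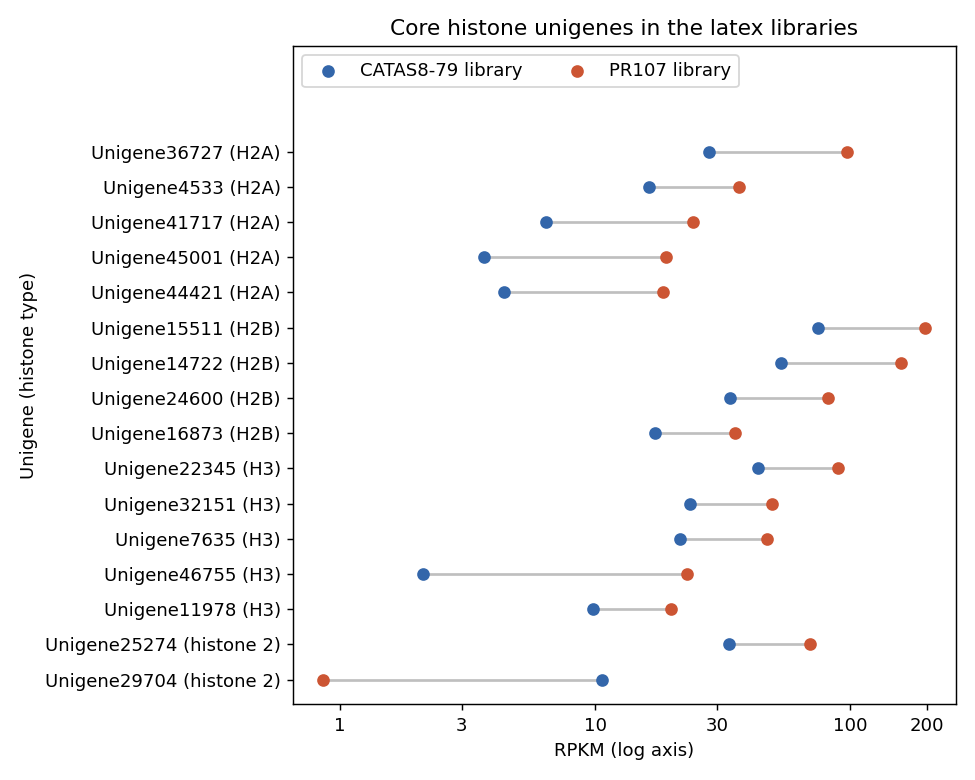
RPKM (log axis) of the 16 core histone unigenes in the CATAS8-79 library (blue) and the PR107 library (orange), with 1 point per library and a line joining the libraries of a unigene. The PR107 point lies to the right in 15 of 16 rows, and the H2B unigene Unigene15511 is the highest at 197 RPKM.

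No H4 unigene was among the members, and whether a unigene with an H1 hit was depended on how the MYB exclusion was read. A unigene whose best Swissprot entry was histone H1, Unigene36788, had 31 reads in CATAS8-79 against 71 in PR107, log2 ratio 1.21, and was left out because a later entry in its Nr cell names a MYB factor. Its searched text does not hold MYB, and with the exclusion read over that text alone it would be a member. Its best Nr hit was the Arabidopsis entry At1g17520, which does not name a histone. Whether it is a linker histone was therefore not settled by its hits. The other unigene left out, Unigene34057, annotated as a single myb histone, had 33 and 6 reads, log2 ratio -2.45. These excluded unigenes ran in opposite directions.

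The deacetylases remove acetyl groups from histone tails, and 6 of 6 were higher in PR107. Their sum was 369 reads in CATAS8-79 against 947 in PR107, log2 ratio 1.37 (interval 1.20 to 1.55). Unigene16229 and Unigene36088 had the Arabidopsis class II enzyme HDA5 as best hit. Unigene16229 had 110 and 309 reads (63.6 and 180 RPKM, log2 ratio 1.50). Unigene36088 had 93 and 209 reads (61.7 and 140 RPKM, log2 ratio 1.18). Unigene3340, whose best Swissprot hit was the related HDA18, had 62 and 164 reads (41.5 and 111 RPKM, log2 ratio 1.41). All of these shared the same best Nr entry, and whether they are parts of a single transcript was not tested. The other deacetylases were at lower levels. Unigene2607, annotated as the class I corepressor HDA19, had 27 and 92 reads (15.9 and 54.5 RPKM, log2 ratio 1.78). Unigene21288, annotated as the plant-specific nucleolar type HDT1, had 26 and 67 reads (7.43 and 19.3 RPKM, log2 ratio 1.38). Unigene45637, annotated as HDA15, of the same family as HDA5, had 51 and 106 reads (7.39 and 15.5 RPKM, log2 ratio 1.07).

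The acetyltransferases ran in both directions. Unigene51816 was annotated as HAG2, a type B enzyme, the type that acetylates new histones before they are built into chromatin. It had 42 reads in CATAS8-79 against 214 in PR107 (3.83 and 19.7 RPKM), log2 ratio 2.36 (interval 1.88 to 2.87). Unigene41581 was annotated as HAC12, of the CBP/p300 family of coactivators, and had 13 and 48 reads (6.48 and 24.1 RPKM, log2 ratio 1.90). Unigene32608 was annotated as GCN5, the catalytic subunit of the SAGA coactivator. It ran the other way, with 71 reads in CATAS8-79 against 18 in PR107 (10.6 and 2.71 RPKM), log2 ratio -1.97 (interval -2.80 to -1.21).

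The methyltransferase class held the unigene with the most reads of the whole set. Unigene1300 was annotated as CARM1 of rice, a histone arginine methyltransferase. It had 862 reads in CATAS8-79 against 392 in PR107 (163 and 74.8 RPKM), log2 ratio -1.13 (interval -1.30 to -0.95). It took 52.1% of the reads of the histone-modifying enzymes in CATAS8-79 and 18.1% in PR107. This 1 unigene set the sum of the enzymes. With it, the 16 enzymes summed to 1653 and 2166 reads, log2 ratio 0.40 (interval 0.31 to 0.49). Without it they summed to 791 and 1774 reads, log2 ratio 1.18 (interval 1.05 to 1.30), and 13 of the other 15 enzymes were higher in PR107. The 9 enzyme unigenes of at least 500 bp summed to 1315 and 1233 reads, log2 ratio -0.082, and with RPKM in place of reads the 16 gave 0.81.

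The lysine methyltransferases carry a SET domain. Unigene34094, annotated as ATXR3, an Arabidopsis enzyme that methylates H3 at active genes, had 119 and 273 reads (18.0 and 41.5 RPKM, log2 ratio 1.21). Unigene33565 and Unigene51770 both had the trithorax-type enzyme ATX2 as best Swissprot hit, but they ran in opposite directions. Unigene33565 had 114 and 56 reads (12.8 and 6.33 RPKM, log2 ratio -1.01). Unigene51770 had 26 and 66 reads (3.60 and 9.20 RPKM, log2 ratio 1.35). The remaining members of the class were higher in PR107. Unigene40968, annotated as SUVR3, of the SU(VAR) group of SET-domain proteins, had 4 and 41 reads (0.983 and 10.2 RPKM). Its log2 ratio of 3.37 (interval 1.90 to 5.31) rested on few reads. Unigene2827, annotated as ATX4, had 6 and 30 reads, log2 ratio 2.33. Unigene22542 was annotated as ASH2, which in the mouse is a subunit of H3 methyltransferase complexes and not itself the enzyme, and had 27 and 81 reads (11.3 and 34.1 RPKM, log2 ratio 1.60). No demethylase was among the members. Outside the rule, Unigene18052 had a lysine-specific demethylase 5A as Swissprot hit, with 76 and 32 reads (log2 ratio -1.24). Its Nr hit was a jumonji domain protein, and other unigenes with a jumonji Nr hit ran both ways. Unigene6968 had 43 and 110 reads (log2 ratio 1.37), and Unigene33580 had 32 and 7 (log2 ratio -2.18).

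**Figure D3:**
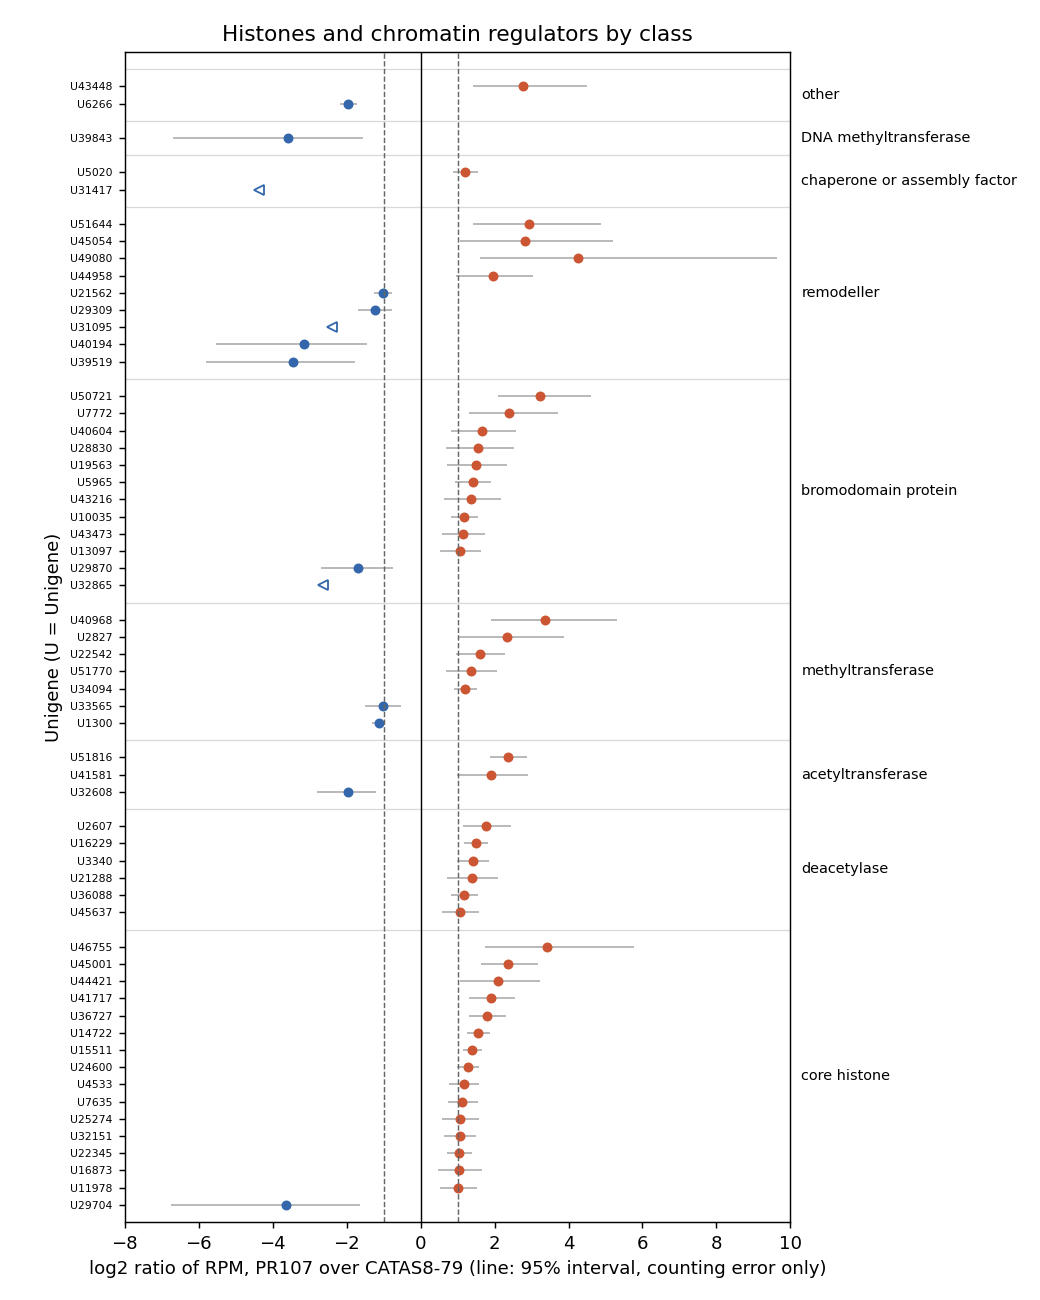
Log2 ratio of reads (PR107 over CATAS8-79) of each of the 58 members, 1 row per unigene, grouped by class, with 95% intervals for counting error as lines and dashed lines at -1 and 1. Open triangles mark members with 0 reads in 1 library, drawn against a floor of 3 reads. Core histones lie to the right of 0 in 15 of 16 rows and deacetylases in 6 of 6, while the remodellers lie on both sides.

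The bromodomain proteins, which read acetylated histones, were higher in PR107 in 10 of 12 unigenes, with 373 reads in CATAS8-79 against 842 in PR107 (log2 ratio 1.19, interval 1.01 to 1.37). Unigene10035, whose best Nr hit was an Arabidopsis bromodomain protein, had the highest level, 94 and 212 reads (17.6 and 39.9 RPKM, log2 ratio 1.18). Unigene5965 had 51 and 135 reads (5.79 and 15.4 RPKM, log2 ratio 1.42). Unigene19563 and Unigene28830 shared their Nr entry with Unigene5965 and ran the same way, with log2 ratios of 1.49 and 1.56. Unigene50721 had the largest ratio of the class, with 7 and 65 reads (2.98 and 27.8 RPKM), log2 ratio 3.23 (interval 2.10 to 4.60). It had the fewest reads in CATAS8-79 of the class. Unigene43473 had 38 and 84 reads, log2 ratio 1.16. Unigene43216 had 21 and 54 reads, log2 ratio 1.37, and its Swissprot hit was a cysteine string protein, a different annotation from its Nr hit. Unigene40604 (16 and 50 reads) and Unigene7772 (8 and 42 reads) had log2 ratios of 1.65 and 2.40. The Nr hit of Unigene40604 was named C2, and only its mouse Swissprot hit named a bromodomain.

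A pair of bromodomain unigenes shared their best Nr entry and ran in opposite directions. Unigene13097 had 43 reads in CATAS8-79 against 90 in PR107 (9.34 and 19.7 RPKM, log2 ratio 1.08), and its Swissprot hit was a probable protein kinase of Dictyostelium. Unigene29870 had 42 and 13 reads (13.5 and 4.23 RPKM, log2 ratio -1.68). Its best Swissprot hit was an H3-type histone of Dictyostelium, so by that hit it would be another core histone that was lower in PR107. The direction of an annotation was thus not the direction of each of its unigenes. Unigene32865 was the second bromodomain unigene that was lower in PR107, with 19 reads in CATAS8-79 against 0 in PR107, and its level in CATAS8-79 was at least 6.29-fold higher against a floor of 3 reads.

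The remodellers summed to fewer reads in PR107, and most of their reads came from a pair of unigenes. Unigene21562 and Unigene29309 shared the same Nr entry and had as Swissprot hit SWI3D, a core subunit of the SWI/SNF complex in Arabidopsis. Unigene21562 had 413 reads in CATAS8-79 against 202 in PR107 (52.3 and 25.8 RPKM, log2 ratio -1.02). Unigene29309 had 142 and 60 reads (44.4 and 18.9 RPKM, log2 ratio -1.23). Together they held 555 and 262 reads, log2 ratio -1.07 (interval -1.29 to -0.86). The other 7 remodellers were sparse, with at most 33 reads in CATAS8-79 and at most 42 in PR107, and summed to 95 and 118 reads. Without Unigene21562 the class had a log2 ratio of -0.40 (interval -0.69 to -0.12), and 5 of its 9 unigenes had 3 or fewer reads in 1 library.

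Among these sparse remodellers, 3 were higher in CATAS8-79. Unigene40194, whose best hit was the ATPase brm of the Drosophila SWI/SNF complex, had 27 and 3 reads, log2 ratio -3.16 (interval -5.52 to -1.46). Unigene39519 had 33 and 3 reads, log2 ratio -3.45 (interval -5.80 to -1.78). Unigene31095 had 16 and 0 reads, and its level in CATAS8-79 was at least 5.29-fold higher. The opposite direction was seen in 4 unigenes. Unigene44958 had 11 and 42 reads (log2 ratio 1.94). Unigene51644, annotated as the Arabidopsis remodeller CHR38 in Nr and as the fission yeast repair protein rhp54 in Swissprot, had 4 and 30 reads (log2 ratio 2.92). Unigene45054, with the chromodomain helicase hrp1 of fission yeast as best hit, had 3 and 21 reads, log2 ratio 2.82 (interval 1.07 to 5.21). Unigene49080 had 1 and 19 reads, log2 ratio 4.26 (interval 1.61 to 9.64).

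Histone chaperones hand histones to DNA, and the 2 unigenes of this class among the members ran in opposite directions. Unigene5020, annotated as MSI3, of a family of histone-binding WD-40 proteins, had 109 reads in CATAS8-79 against 249 in PR107 (52.3 and 120 RPKM, log2 ratio 1.20). Unigene31417 had 63 reads in CATAS8-79 against 0 in PR107, and its level in CATAS8-79 was at least 20.8-fold higher. Its Nr hit was a NAP1-like nucleosome assembly protein, while its Swissprot hit was NOP12, a yeast nucleolar protein, so the annotations disagree. The DNA methyltransferase Unigene39843, annotated as DRM2, which methylates new sites in Arabidopsis, had 24 and 2 reads (8.38 and 0.704 RPKM), log2 ratio -3.57 (interval -6.70 to -1.56).

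The remaining members fell in no class. Unigene6266 was annotated as the Aurora kinase AUR1, which phosphorylates H3 during mitosis. It had 771 reads in CATAS8-79 against 197 in PR107 (89.3 and 23.0 RPKM), log2 ratio -1.96 (interval -2.19 to -1.73). It thus ran against 15 of the 16 core histones. Unigene43448, a chromatin-binding annotation of Arabidopsis, had 5 and 34 reads (log2 ratio 2.78).

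Read depth limited part of the set. In 10 members 1 library had 3 or fewer reads, and 7 of these were higher in CATAS8-79. Over the members with more than 3 reads in each library, the median absolute log2 ratio was 1.41, against 1.55 over the unigenes called by the same test.

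The direction of the calls varied with the number that the assembly gave a unigene. Among unigenes numbered 30000 or lower, 53.0% of 3647 calls were higher in PR107, and so were 22 of 28 members. From there to 40000 the values were 21.8% of 1155 calls and 4 of 11 members, and above 40000 they were 82.9% of 1775 calls and 18 of 19 members. The core histones were higher in PR107 in 9 of 10, 2 of 2 and 4 of 4 unigenes of these blocks, and the histone-modifying enzymes in 6 of 7, 2 of 4 and 5 of 5. The remodellers were higher in PR107 in 0 of 2, 0 of 2 and 4 of 5. The 4 remodellers that were higher in PR107 were all numbered above 40000, where Unigene40194 (27 and 3 reads) ran the other way. The SWI3D pair, with most reads of the class, was numbered 30000 or lower and was higher in CATAS8-79. The part of the numbering in these results was not tested. The blocks were set after the data were examined.

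**Figure D4:**
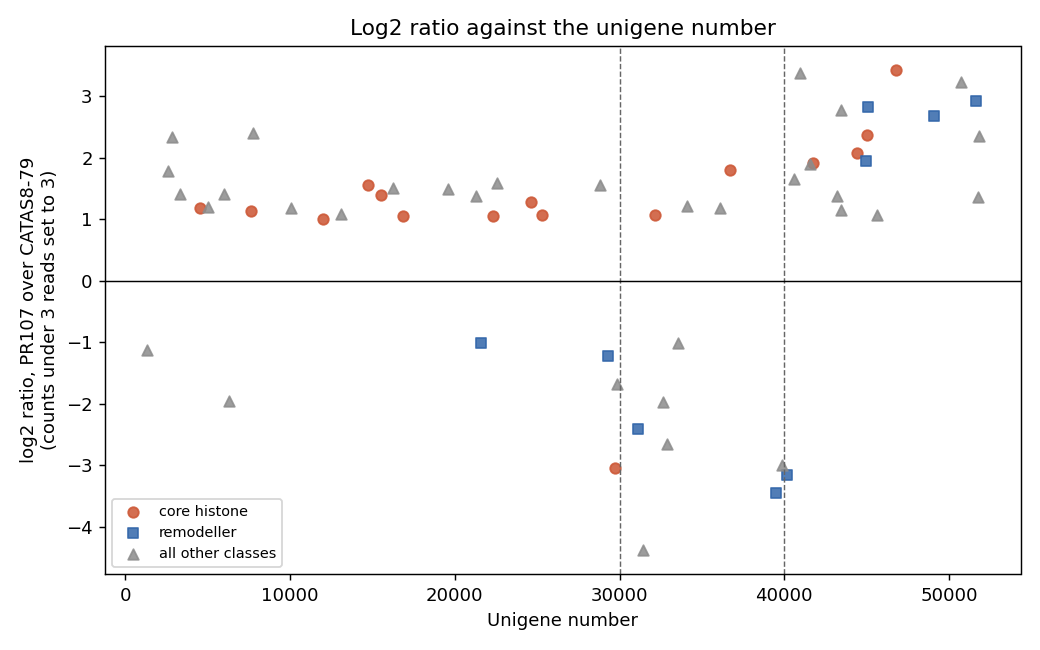
Log2 ratio of reads (PR107 over CATAS8-79) of the 58 members against the number the assembly gave each unigene, with counts under 3 reads set to 3 and dashed lines at 30000 and 40000. Above 40000, 18 of 19 members lie above 0, and core histones lie above 0 in all 3 blocks with 1 exception.

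Markers of cell types and of division were read beside these values. The laticifer words (rubber elongation factor, small rubber particle protein, hevein and rubber transferase) matched 1 unigene of the authors' table, Unigene823, a small rubber particle protein with 51 reads in CATAS8-79 against 274 in PR107. A pair of unigenes for enzymes that make rubber precursors ran the other way. They were outside these words and were added after their values were seen, and they do not stand for the pathway. The paper also reports a geranyl-diphosphate synthase unigene that was higher in PR107. It reports a rubber transferase unigene as higher in CATAS8-79, opposite to Unigene823. That rubber transferase unigene was not matched by the words above, so no value is given for it here. Unigene38121, a hydroxymethylglutaryl-CoA reductase, had 34 and 0 reads, and Unigene33714, a farnesyl diphosphate synthase, had 36 and 9. Marker unigenes that did not pass the thresholds carry no annotation there, so the latex label was not checked further. Of 18 unigenes with leaf or green bark markers, 9 were higher in each library, and their sum was 15356 reads in CATAS8-79 against 8078 in PR107. Except for Unigene12717, the 9 that were higher in CATAS8-79 were annotated as the photosystem I apoproteins A1 or A2. Those apoprotein unigenes held most of the summed reads, for example Unigene1182 with 3245 and 1257. The Rubisco small chain Unigene43787 (71 and 256 reads) and the photosystem I subunit N Unigene51624 (0 and 241) were higher in PR107. Of 21 unigenes matched by words for dividing cells, kinesin among them, 11 were higher in PR107, and their sum was 7581 and 3924 reads. The words also took in annotations of other kinds, such as Unigene9031, whose Swissprot hit was the transcription factor TCP8. Unigene4226, whose Swissprot hit was a kinesin light chain, was also matched. The median log2 ratio of these 21 was 1.08, so the median and the sum (-0.94) differed in sign. That sum was carried by the kinesin Unigene552 (3175 and 654 reads) and the D-type cyclin Unigene6047 (1407 and 195 reads), and the other 19 held 2999 and 3075 reads. The mitotic cyclins of the A and B types were higher in PR107 in 3 of 3 unigenes, as most core histones were. These were Unigene7525 (78 and 171 reads), Unigene45622 (21 and 71) and Unigene29357 (20 and 55). Unigenes of proliferating cell nuclear antigen, which is made with histones at replication, ran both ways. Unigene40037 (480 and 119 reads) and Unigene35933 (136 and 65 reads, log2 ratio -1.05) were higher in CATAS8-79, unlike most core histones. Unigene51522 was higher in PR107, with 2 and 129 reads, log2 ratio 6.02 (interval 4.14 to 9.08). The part of cell type and division in the histone values was not tested.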

How the data were processed

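Poly(A) RNA of latex was sequenced as 1 library per clone. Per the labels and the methods, the authors assembled the reads with SOAPdenovo and deposited read counts per unigene, with unigene lengths in bp. The deposited RPKM equals the count scaled by length and library total to within 5.0e-05. The authors' log2 ratio, p-value and FDR columns were not used, except that the members were drawn from the authors' table of called unigenes, which alone gives Nr and Swissprot hits. No unigene identifier matched a RefSeq symbol (0 matches), and no genome or sequence was used.

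Members and lists were chosen with earlier results of these data known. Classes followed words in the annotation, with 2 unigenes (Unigene25274 and Unigene29704, histone 2) moved to the core histones. The naming rule took every core histone, chaperone and DNA methyltransferase, the members with the most reads in each other class, those with the largest log2 ratio in each direction, and those nearest the threshold. It named 52 members, and the other 6 were added after their values were seen, as were the unigenes left out for MYB and the marker unigenes that are named.

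Fisher's exact test on counts was used because with 1 library per clone a quasi-likelihood fit in edgeR has no residual degrees of freedom. The test was checked on simulated data. Where a library had 0 reads, a bound was given against a floor of 3 reads. Alternatives were scaling by TMM in edgeR or by DESeq2 size factors, filters at 10 reads and 500 bp, exactTest in edgeR at a biological coefficient of variation set to 0.2 or 0.4, a |log2 Ratio| of at least 2, and other ways to sum a class. Count fits ran in R 4.3.3 with DESeq2 1.42.0 and edgeR 4.0.16. The other steps ran in Python 3.11.15 with scipy 1.17.1, pandas 2.3.3 and numpy 2.4.6, and figures were drawn with matplotlib 3.10.9.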

Additional observations from a re-analysis of the deposited data

How the results depend on the processing

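No paired analysis was possible because each clone had 1 library, and no replicate could be left out. The summed log2 ratio of the core histones stayed between 1.22 and 1.37 under every alternative run. The rule admitted only unigenes with a |log2 Ratio| of at least 1 in this contrast, and 15 of the 16 were positive. That narrow range was therefore largely set by the selection, and nothing is read from it. The sum of the histone-modifying enzymes, 0.40, was 0.81 with RPKM summed, 1.40 as a median, -0.082 with unigenes of at least 500 bp, 0.030 with unigenes numbered 30000 or lower, and 1.18 without Unigene1300. The sum of the remodellers, -0.76, was -1.02 as a median, -1.07 with unigenes numbered 30000 or lower, and -0.40 without Unigene21562. Calls over all unigenes, members called and members higher in PR107 were 2785, 25 and 19 with unigenes of at least 500 bp, where fewer were tested. They were 2775, 19 and 12 at a |log2 Ratio| of at least 2, and 3694, 28 and 22 with unigenes numbered 30000 or lower. With the exact test of edgeR they were 1515, 6 and 4 at an assumed biological coefficient of variation of 0.2, and 190, 1 and 0 at 0.4. The member called at 0.4 was the NAP1-like Unigene31417, and no core histone other than Unigene45001 was among the 6 called at 0.2. With TMM, 55 members were called and 50.3% of all calls were higher in PR107, against 55.6% with library totals, and Unigene11978 fell under the threshold at 0.96. The alternatives by unigene number and without the member with the most reads were chosen after seeing the data. So was the core histone sum without the unigenes named only histone 2, which gave 1.37. Where values changed, the cause was not tested beyond what each alternative leaves out.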

Other observations

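Further words for chromatin proteins matched 39 unigenes of the authors' table outside the rule, of which 18 were higher in PR107 and 21 in CATAS8-79. Of these, 37 passed the Fisher test, a description only, since the table holds called unigenes. The words also took in annotations of other kinds, such as Unigene9823, whose Swissprot hit was a chloroplast methyltransferase of Rubisco, and Unigene23700, a kinesin that is also among the markers of dividing cells. The 39 summed to 8582 reads in CATAS8-79 against 6037 in PR107, log2 ratio -0.50. All 5 unigenes annotated as argonaute 4, which guides DNA methylation by small RNAs in Arabidopsis, were higher in CATAS8-79, with 2285 and 921 reads in sum (log2 ratio -1.30, interval -1.41 to -1.19). They were between 241 and 549 bp long; whether they belong to a single transcript was not tested. The DNA methyltransferase DRM2 unigene, which acts in the same pathway, had 24 and 2 reads. Among the further words, Unigene41097, annotated as RNA-dependent RNA polymerase 2, ran the other way. It had 2 and 26 reads, log2 ratio 3.71 (interval 1.71 to 6.83). Unigene33201, with a Dicer homolog 3a as Swissprot hit, had 13 and 0 reads and did not pass the Fisher test. Whether the pathway as a whole differed was not tested. Of 4 unigenes annotated as argonaute 2, 3 were higher in PR107, but their sum was 279 and 241 reads (log2 ratio -0.20, interval -0.46 to 0.05). Unigene40452, with most of these reads, had 267 and 63, and Unigene42356 had 3 and 106 reads, log2 ratio 5.15 (interval 3.57 to 7.45). Of 11 unigenes with a PHD finger, a domain that reads histone tails, 4 were higher in PR107, with 3613 and 2396 reads in sum (log2 ratio -0.58). The argonaute 4 and PHD finger sums ran against that of the core histones. The subunit SMC5 of the complex that repairs chromosome breaks (Unigene19107) had 836 and 230 reads, log2 ratio -1.85.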
